A study of Mus musculus with 32 samples.

Results

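The contractile apparatus of smooth muscle was followed through 10 genes: Acta2, Myh11, Tagln, Cnn1, Des, Myocd, Lmod1, Actg2, Mylk and Synpo2. They were chosen by symbol, as the rows of a table of estimated gene counts whose Ensembl gene identifiers carry these names, and all 10 were found among its 41687 rows. The rule used the symbols and no measured value. All 10 passed the filter on low counts in every comparison of knockout and wild type.

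The study sequenced lung RNA of adult mice that lack Bmal1, a transcription factor of the circadian clock whose gene carries the symbol Arntl, and of wild-type mice. The design asked how knockout and wild type compare under different ways of handling ribosomal RNA. Wild-type mice (WT) were C57b/6 and the others were Bmal1 knockouts (KO). All were 8 to 18 weeks old, bred in-house and labelled female. The cells or promoter through which the gene was deleted, and the time of day of collection, are not given in the sources used here. RNA of each mouse was prepared in up to 3 ways. For RiboZero, ribosomal RNA was pulled down and removed, and for PolyA, polyadenylated RNA was captured, each from 200 ng of RNA. NoSelect libraries had neither step and started from 15 ng. RiboZero and PolyA each held 6 WT and 6 KO libraries, from WT mice 1 to 6 and KO mice 1 to 6. NoSelect held 4 WT and 4 KO libraries, from the mice numbered 3 to 6, so that 32 libraries came from 12 mice. Per the series' design text each NoSelect library was made in 6 replicates, and the table holds 1 column for each. The mice carry separate numbers in the labels, and p-values between KO and WT measure the spread between these animals. The main tests between preparations, and those of interactions, had no term for the mouse. They treat libraries of the same mouse as separate samples.

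Smooth muscle contracts when calcium activates myosin light chain kinase, which phosphorylates the light chain of smooth muscle myosin and lets it pull on actin filaments. In the lung, smooth muscle surrounds conducting airways, arteries and veins, and shares several of these proteins with pericytes and myofibroblasts. The contractile genes are switched on together by serum response factor, which binds short A/T-rich elements called CArG boxes, and by its cofactor myocardin.

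Sites of this kind are the sequence by which the genes are known as a group, so the stretch before each start was searched for them. Promoters of 6 of the 10 genes (Acta2, Cnn1, Des, Lmod1, Mylk and Synpo2) were matched by symbol in a RefSeq table of build GRCm38.p6 that gives 250 bases before each start. A complete CArG box was present on either strand in 0 of the 6 windows, beside 1.47% of all 32851 promoters in the table. Allowing 1 mismatch within the A/T core, 1 of the 6 held such an element, beside 8.59% of all promoters. That promoter was the one of Acta2, which encodes smooth muscle alpha-actin, and it held 2 elements, shown here 5′ to 3′ on the gene's strand with the element in capitals and flanking bases in lower case.
Acta2, element from 84 to 75 bases before the start, chr19:34255438-34255467, minus strand: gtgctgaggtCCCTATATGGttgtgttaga
Acta2, element from 34 to 25 bases before the start, chr19:34255388-34255417, minus strand: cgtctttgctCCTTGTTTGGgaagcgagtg
The clock's own element, the E-box CACGTG to which Bmal1 and its partner Clock bind, was present in 0 of the 6 windows and in 6.02% of all promoters. The letters TATAAA were present in 0 of the 6 and in 7.59% of all. A match is a description of the letters and not of binding, and these short windows cover a small part of each locus. The starts are those of RefSeq. The RefSeq starts used for Acta2 and Mylk lie 217 and 39740 bases inside the GENCODE spans given next, so the Mylk window and both Acta2 elements lie within the annotated genes.

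Positions are those of GENCODE M21 on GRCm38. Cnn1 (ENSMUSG00000001349, chr9:22099216-22109630) and Tagln (ENSMUSG00000032085, chr9:45929619-45936058) share chromosome 9. Des (ENSMUSG00000026208, chr1:75360329-75368579) and Lmod1 (ENSMUSG00000048096, chr1:135324807-135368065) share chromosome 1, and Myh11 (ENSMUSG00000018830, chr16:14194535-14291372) and Mylk (ENSMUSG00000022836, chr16:34745210-35002420) share chromosome 16. Acta2 is ENSMUSG00000035783 (chr19:34241090-34255590), Actg2 is ENSMUSG00000059430 (chr6:83512905-83536265), Myocd is ENSMUSG00000020542 (chr11:65176561-65269989) and Synpo2 is ENSMUSG00000050315 (chr3:123076519-123236149). Their lengths along the genome run from 6.44 kb for Tagln to 257 kb for Mylk. Their transcripts are nearly free of sequence shared with other genes: the share of 31-base words found in transcripts of another gene was at most 1.39%, in Acta2. Exons of antisense genes cover 62.4% of the Tagln exon bases (Gm48529) and smaller parts of Des and Mylk. The kits were stranded, but whether the counting used strand is not given in the sources used here, so the Tagln value is the one least certain in this respect.

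Whole-library facts were as follows. Library totals ran from 11638594 to 25801237 counts in RiboZero, from 29924325 to 41548830 in PolyA and from 74979802 to 115059756 in NoSelect. In NoSelect, Lars2 and the Gm42418 row took 67.8% to 71.5% of the counts, which left 22009262 to 37100656. Values are given as normalised CPM, the usual rescaling of counts to a common library total, with totals corrected by TMM factors over all 32 libraries. The targeted gene, Arntl, lay between 26.8 and 33.6 normalised CPM in WT and between 15.0 and 18.6 in KO in RiboZero, and the groups did not overlap. They did not overlap in NoSelect either (27.1 to 29.2 against 16.5 to 18.5), but did in PolyA (19.8 to 23.9 against 17.3 to 21.1). The log2 fold changes of Arntl were -0.83 in RiboZero, -0.27 in PolyA and -0.69 in NoSelect, with edgeR adjusted p of 2.46e-05, 0.0262 and 0.000451. The PolyA call of Arntl held in 11 of 20 alternatives and was lost without KO mouse 6, at -0.24 (adjusted p 0.0611). One NoSelect library, of KO mouse 6, is labelled as liver. Its 8 lung markers summed to 11300 normalised CPM, the highest of the 8 NoSelect libraries, and the 10 liver markers summed to at most 2.61 in any of them, so the label is not borne out by the RNA. The 3 libraries of KO mouse 6 also held 105 to 188 normalised CPM of Y-linked genes, where the other 29 libraries held at most 0.0356, against the label female. The tests of genotype, preparation and interaction and the co-variation were therefore also computed without that mouse. Without it, 0 of the 10 genes were called between KO and WT in any preparation.

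All 10 genes were detected in all 32 libraries. Per kilobase of exon, scaled to the common total of TPM over all rows of a library, Acta2 was the highest of the 10 in each preparation. It stood at 112 ± 21.8 (SD, n = 12) in RiboZero, followed by Tagln, a calponin-related actin-binding protein, at 85.6 ± 12.9 and by Mylk, the myosin light chain kinase, at 66.7 ± 6.49. Myh11, the smooth muscle myosin heavy chain, at 42.5 ± 6.42, and Des, the intermediate filament protein desmin, at 37.0 ± 5.36, had overlapping ranges over the 12 libraries. So did Cnn1, or calponin, at 22.3 ± 7.04, and Actg2, the gamma-actin of enteric smooth muscle, at 16.4 ± 4.40. Lmod1, a leiomodin that nucleates actin filaments, stood at 5.15 ± 0.582, Synpo2, an actin-bundling protein of the Z-disc, at 4.08 ± 0.444 and Myocd, the cofactor myocardin, last at 1.13 ± 0.228. In NoSelect the order was the same, and in PolyA Des and Cnn1 stood above Mylk, with Myh11 seventh at 70.2 ± 13.8. These levels depend on the length used: with the longest transcript in place of the union of exons, Tagln at 349 ± 55.0 stood above Acta2 at 330 ± 78.3 in PolyA, within their spread. It also put Synpo2 above Lmod1 in RiboZero and NoSelect, and Mylk above Cnn1 in PolyA (95.79 and 86.05). In NoSelect it put Mylk above Tagln (32.97 and 29.65) and Des above Myh11 (14.65 and 14.01). Mylk also produces a nonmuscle kinase and telokin, which this table sums.

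**Figure D1:**
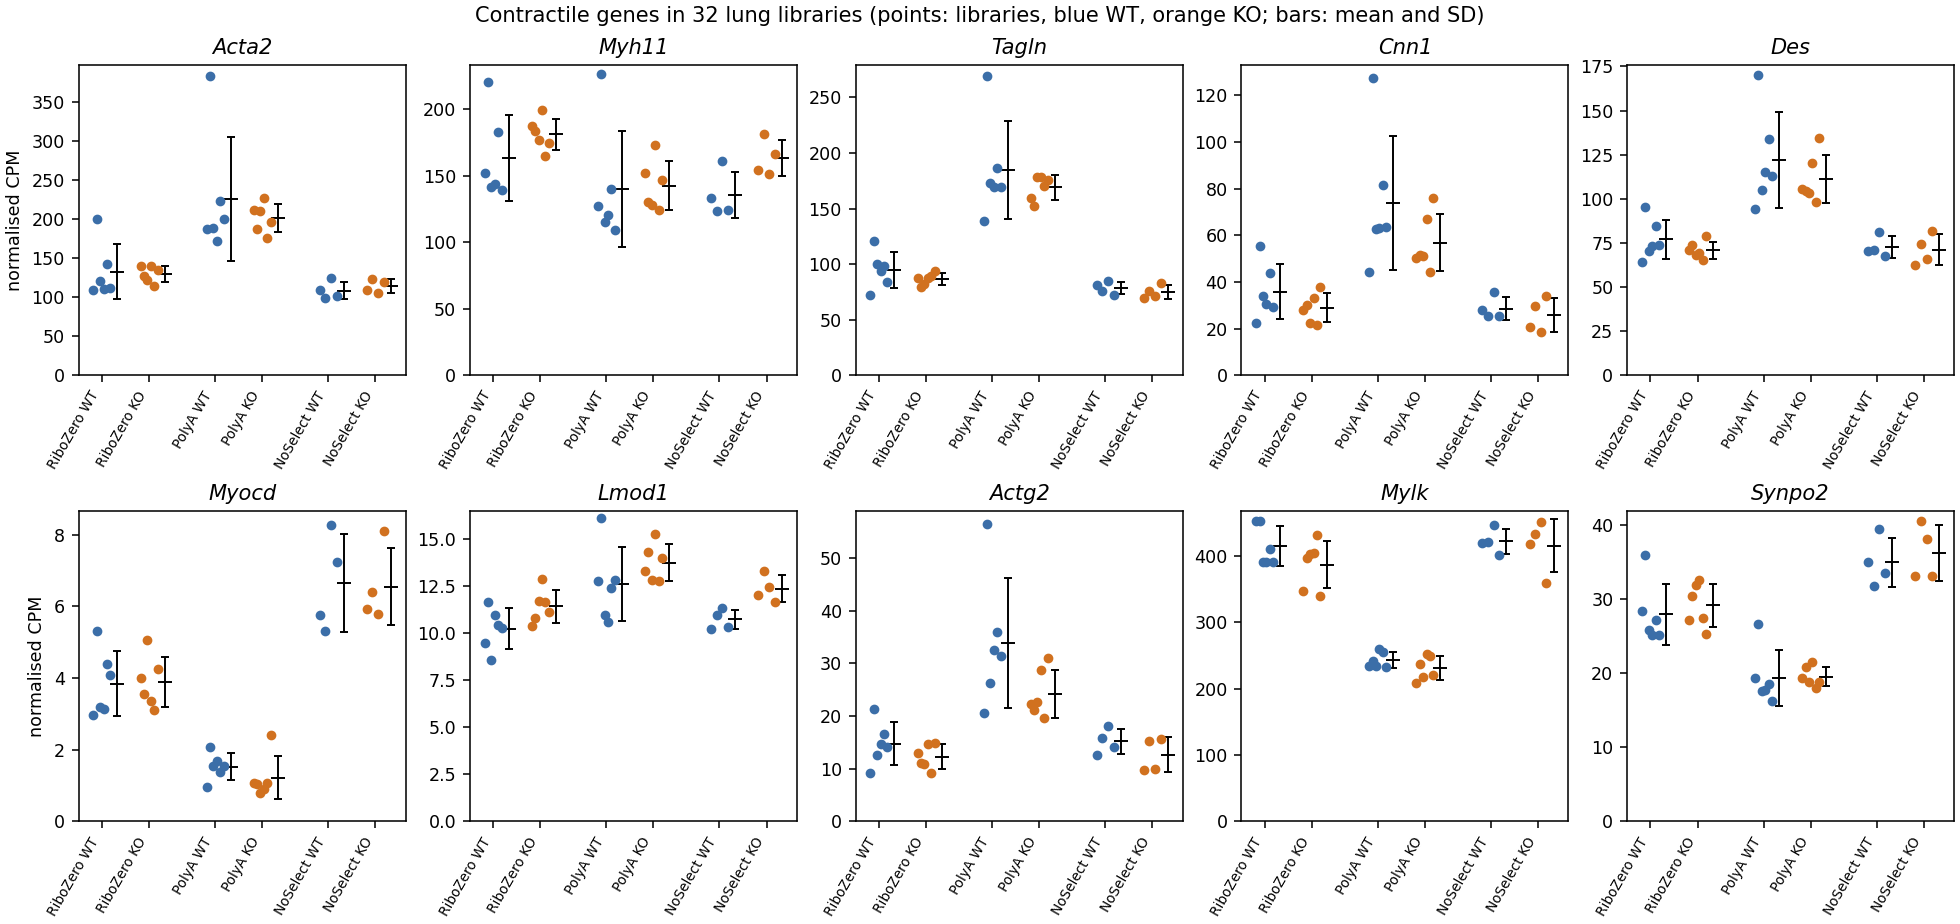
Normalised CPM (y axes, from 0) of the 10 contractile genes in each library, by preparation and genotype (x axes). Points are libraries (n = 6 per genotype in RiboZero and PolyA, 4 in NoSelect), and bars are mean and SD. The highest point of Acta2, Myh11, Tagln, Cnn1 and Des in RiboZero and in PolyA is WT mouse 2.

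The first comparison asked whether the contractile genes differ between KO and WT lung. None of the 10 passed the test in any preparation. By the quasi-likelihood test of edgeR, with p-values adjusted after Benjamini and Hochberg, 0 of 10 had an adjusted p under 0.05 in RiboZero, where 3.46% of 16710 tested rows did. The count was 0 of 10 in PolyA (background 4.03% of 17211 rows) and 0 of 10 in NoSelect (2.17% of 17124 rows). DESeq2 gave 0 of 10 in each preparation as well. At an unadjusted p under 0.05 in edgeR the counts were 0 in RiboZero, 1 in PolyA (Actg2) and 2 in NoSelect (Myh11 and Lmod1). Over all tested rows they were 2739 of 16710, 3098 of 17211 and 2696 of 17124. In bulk tissue, fewer smooth muscle cells and less RNA per cell cannot be told apart.

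The median log2 fold change of the 10 genes was -0.07 in RiboZero, -0.17 in PolyA and -0.03 in NoSelect, beside medians of all tested rows of -0.0029 in PolyA and 0.0005 in NoSelect, and about 0 in RiboZero. Estimates were above 0 for 4, 1 and 4 of the 10 genes and below 0 for the rest. The 3 preparations come from the same mice, so these are not independent repeats.

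Among the actins, Acta2 lay between 109.6 and 199.6 normalised CPM in RiboZero WT (median 117) and between 114 and 140.2 in KO (median 131). Its KO range thus lay inside the WT range. The log2 fold change was -0.03 (SE 0.14, 95% interval -0.33 to 0.26) in RiboZero, -0.20 (SE 0.18, -0.58 to 0.18) in PolyA and 0.07 (SE 0.080, -0.11 to 0.26) in NoSelect. Actg2 had the largest differences of the 10 in PolyA, where WT libraries ran from 20.7 to 56.5 (median 31.9) and KO libraries from 19.6 to 31.02 (median 22.4). Of the 6 KO libraries, 4 lay below all WT libraries but that of mouse 1, and the ranges overlapped. The log2 fold change was -0.52 (SE 0.21), with an unadjusted p of 0.0266 and an adjusted p of 0.203 in edgeR's test, and it was -0.30 (adjusted p 0.289) without WT mouse 2. In RiboZero and NoSelect Actg2 stood at -0.26 (SE 0.18 in each).

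The kinase Mylk gave the narrowest intervals of the 10 in RiboZero and PolyA. Mylk had 391 to 453 normalised CPM in RiboZero WT (median 401) and 340 to 432 in KO (median 401). Its log2 fold changes were -0.10 (95% interval -0.25 to 0.04), -0.11 (-0.22 to 0.01) and -0.03 (-0.20 to 0.14) in RiboZero, PolyA and NoSelect. Of the motor protein, in NoSelect, Myh11 had 133, 124, 161 and 125 normalised CPM in WT mice 3 to 6 and 154, 181, 151 and 166 in KO mice 3 to 6. A single WT library, of mouse 5, reached into the KO range. The difference was 0.26 on the log2 scale (SE 0.093, unadjusted p 0.0201, edgeR adjusted p 0.216). It was 0.15 (SE 0.11) in RiboZero and -0.01 (SE 0.17) in PolyA.

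The thin-filament proteins Tagln and Cnn1 and the intermediate filament protein Des had estimates below 0 in every preparation. Cnn1 ran from 22.3 to 55.3 normalised CPM in RiboZero WT (median 32.3) and from 21.8 to 38.1 in KO (median 28.9), and from 44.1 to 128 against 44.3 to 76.2 in PolyA (medians 63.4 and 51.4). Its estimates were -0.31 (SE 0.20), -0.42 (SE 0.22) and -0.15 (SE 0.20), with intervals that reach from -0.90 to 0.30. Tagln stood at -0.14, -0.16 and -0.07 and Des at -0.12, -0.17 and -0.04, with SE between 0.068 and 0.13. For both, WT and KO ranges overlapped in every preparation. Without KO mouse 6 the NoSelect estimates were -0.31 for Cnn1, -0.12 for Tagln and -0.11 for Des, short of the threshold.

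The filament nucleator Lmod1 was the member whose estimate lay above 0 in every preparation. In NoSelect its WT libraries had 10.3, 11.0, 11.4 and 10.4 normalised CPM and its KO libraries 12.02, 13.3, 12.5 and 11.7. The groups did not overlap, as for 9.55% of all tested rows in NoSelect. The log2 fold change was 0.20 (SE 0.063, unadjusted p 0.0122, edgeR adjusted p 0.171). Lmod1 overlapped in RiboZero (0.16, SE 0.078) and in PolyA (0.09, SE 0.095). No other member separated the genotypes in NoSelect, and 0 of 10 did so in RiboZero and in PolyA, where 2.85% and 3.32% of all rows did.

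Myocd, the regulator of the group, was at the limit of precision in PolyA, where it was represented by 44 to 148 counts per library. It had 0.951 to 2.08 normalised CPM in PolyA WT (median 1.54) and 0.802 to 2.41 in KO (median 1.06). The KO maximum belonged to KO mouse 6 and stood apart from the other 5 KO libraries. The log2 fold changes were 0.01 (SE 0.17), -0.36 (SE 0.27) and -0.02 (SE 0.16) in RiboZero, PolyA and NoSelect. Without KO mouse 6 the PolyA estimate of Myocd was -0.65 (edgeR adjusted p 0.081) and the NoSelect estimate -0.14. Synpo2 stood at 0.06, -0.02 and 0.05 (SE 0.094, 0.10 and 0.090).

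**Figure D2:**
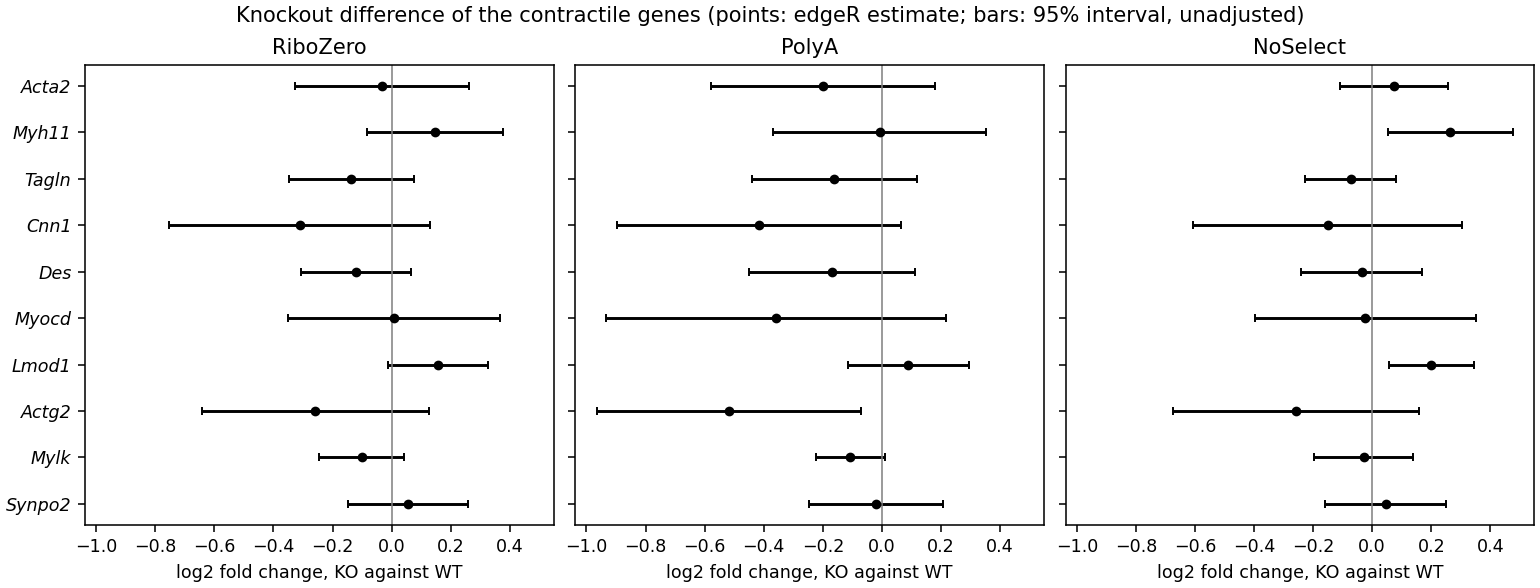
Log2 fold change of KO against WT (x axis) for the 10 genes (y axis) in each preparation. Points are edgeR estimates and bars their unadjusted 95% intervals. Intervals lie to one side of 0 for Actg2 in PolyA and for Myh11 and Lmod1 in NoSelect, and none passed after adjustment.

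WT mouse 2 weighed on these estimates. It was the highest of the 12 mice for 8 of the 10 genes in RiboZero and for 8 of 10 in PolyA, the exceptions being Mylk and Lmod1 in RiboZero and Mylk and Myocd in PolyA. It has no NoSelect library. Without it the PolyA estimate of Acta2 went from -0.20 to 0.02, that of Myh11 from -0.01 to 0.19, that of Synpo2 from -0.02 to 0.10 and that of Cnn1 from -0.42 to -0.18. Those of Tagln and Des, at -0.16 and -0.17 with it, were -0.02 and -0.04 without it. In RiboZero, Acta2 went from -0.03 to 0.12, Cnn1 from -0.31 to -0.15, Actg2 from -0.26 to -0.13, Tagln from -0.14 to -0.06 and Des from -0.12 to -0.05. Myh11 went from 0.15 to 0.25, Synpo2 from 0.06 to 0.14 and Myocd from 0.01 to 0.12. No member passed the test without it. The interaction of genotype and preparation, which tests whether the KO difference depends on the preparation, had an adjusted p under 0.05 for 0 of 10 members and for 0.0% of all rows in each of the 3 pairs of preparations. At an unadjusted p under 0.05 there were 0 of 10 members in each pair. Over all rows there were 331 of 18164, 412 of 18372 and 244 of 17502. DESeq2 called 0 of 10 members. The edgeR test had no term for the mouse, and fewer rows passed than the share of 0.05 that would if no row differed. Arntl, at 0.57 for PolyA against RiboZero, had an edgeR unadjusted p of 6.03e-06 and an adjusted p of 0.1095. Calls of 0 therefore do not show that KO differences are alike in each preparation.

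The wider machinery of the same cells was described through lists of related genes. Calls by edgeR are read against 3.46%, 4.03% and 2.17% of all rows in RiboZero, PolyA and NoSelect. Those by DESeq2 are read against its 976, 1355 and 878 called rows. Counts at an unadjusted p under 0.05 in edgeR are read against 2739 of 16710, 3098 of 17211 and 2696 of 17124 rows. Of 13 genes of the serum response factor axis and its modulators, 0 passed in any preparation, in edgeR or in DESeq2, and 1, 0 and 0 had an unadjusted p under 0.05. Srf itself, the factor that binds CArG boxes, had estimates of -0.29 (SE 0.13), -0.25 (SE 0.12) and -0.14 (SE 0.11), with edgeR adjusted p of 0.261, 0.281 and 0.598. The list medians were -0.02, -0.03 and -0.01.

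Of 20 other contractile and cytoskeletal proteins, 8, 5 and 5 had an unadjusted p under 0.05 in RiboZero, PolyA and NoSelect. Over all tested rows there were 2739 of 16710, 3098 of 17211 and 2696 of 17124. DESeq2 called 3 of the 20 in each preparation. By edgeR 1 was called higher in RiboZero and in NoSelect and 1 lower in PolyA. Mustn1, a small nuclear protein of muscle, rose in KO in RiboZero and in NoSelect. It had 13.5 to 18.3 normalised CPM in RiboZero WT (median 15.5) and 18.3 to 20.5 in KO (median 19.5), with an overlap at WT mouse 2. In NoSelect the 4 WT libraries (12.1 to 15.1) lay below the 4 KO libraries (18.1 to 19.6). The log2 fold change of Mustn1 was 0.31 (SE 0.071, edgeR adjusted p 0.0297) in RiboZero, 0.31 (SE 0.096, adjusted p 0.1005) in PolyA and 0.45 (SE 0.071, adjusted p 0.0181) in NoSelect. Its RiboZero call held in 12 of 20 alternatives and its NoSelect call in 12 of 15. Pdlim3, an actinin-associated protein, fell in PolyA by a log2 change of -0.43 (SE 0.097, edgeR adjusted p 0.0271), and this call held in 14 of 20 alternatives. It stood at -0.21 (SE 0.091) in RiboZero and -0.28 (SE 0.15) in NoSelect, short of the threshold.

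Prkg1 encodes the cGMP-dependent kinase through which nitric oxide relaxes smooth muscle. It rose in PolyA from 1.49 to 2.39 normalised CPM in WT to 2.42 to 3.70 in KO, without overlap, a log2 change of 0.60 (SE 0.13, edgeR adjusted p 0.0261). In RiboZero, where it was counted at 30.0 to 44.4 normalised CPM, the estimate was 0.10 (SE 0.082), and in NoSelect it was 0.15 (SE 0.073). The PolyA call, in a comparison where 4.03% of all rows were called, held in 15 of 20 alternatives. The interaction of genotype and preparation called 0 rows in edgeR's test. That test cannot decide whether the Prkg1 difference depends on the preparation. Gucy1a1, a subunit of the soluble guanylate cyclase that makes cGMP, had estimates of 0.25 (SE 0.089), 0.27 (SE 0.086) and 0.31 (SE 0.094) with edgeR adjusted p of 0.173, 0.113 and 0.1502.

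Of 11 calcium-handling and channel genes, 3, 2 and 3 had an unadjusted p under 0.05 in RiboZero, PolyA and NoSelect. DESeq2 called 2, 1 and 2 of them. Trpc6 rose in KO in all 3 preparations. It encodes a receptor-operated cation channel of vascular smooth muscle. Its RiboZero libraries ran from 24.3 to 31.8 normalised CPM in WT (median 28.6) and from 31.98 to 44.3 in KO (median 41.5). In PolyA the ranges were 9.26 to 11.1 (median 10.6) and 11.7 to 17.8 (median 14.7). In NoSelect the values were 25.5, 26.2, 23.8 and 24.4 in WT and 39.5, 34.3, 35.5 and 34.8 in KO. All KO libraries thus lay above all WT libraries in each preparation. The log2 fold changes of Trpc6 were 0.51 (SE 0.081, edgeR adjusted p 0.00407), 0.48 (SE 0.085, adjusted p 0.00739) and 0.52 (SE 0.055, adjusted p 0.00288), and it passed in every alternative run. Kcnmb1, the beta subunit of the calcium-activated potassium channel, had estimates of 0.51 (SE 0.20), 0.38 (SE 0.20) and 0.04 (SE 0.19) and did not pass.

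Markers of neighbouring cell types were measured beside these genes. Of 10 pericyte markers, 2 were lower in KO in every preparation, Abcc9 and Kcnj8, which encode the regulatory and the pore-forming subunit of the ATP-sensitive potassium channel of vascular smooth muscle and pericytes. Abcc9 had 23.4 to 30.2 normalised CPM in RiboZero WT (median 27.4) and 17.5 to 21.0 in KO (median 19.3), and in NoSelect 24.2 to 26.8 against 17.4 to 18.7. These groups did not overlap, and in PolyA the lowest WT library, of mouse 5, reached the KO range. The log2 changes of Abcc9 were -0.49 (SE 0.071, edgeR adjusted p 0.002105) in RiboZero, -0.57 (SE 0.11, adjusted p 0.01295) in PolyA and -0.51 (SE 0.046, adjusted p 0.001313) in NoSelect. Kcnj8 had 6.31, 6.32, 6.00 and 7.40 normalised CPM in NoSelect WT and 3.68, 3.15, 4.08 and 4.03 in KO, without overlap, and overlapped in RiboZero (4.99 to 7.79 against 3.21 to 5.75) and in PolyA (6.40 to 11.2 against 4.89 to 6.96). The log2 changes of Kcnj8 were -0.69 (SE 0.15, edgeR adjusted p 0.0245), -0.71 (SE 0.14, adjusted p 0.01155) and -0.80 (SE 0.11, adjusted p 0.0106). The Kcnj8 call held in 13 of 20 alternatives in RiboZero and in 14 of 15 in NoSelect, and that of Abcc9 in 19 of 20 in PolyA.

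The pericyte list did not move in a single direction. Its median log2 fold change was above 0, at 0.14, 0.20 and 0.24 in RiboZero, PolyA and NoSelect. By edgeR 2, 1 and 1 of its 10 markers were called higher and 2, 2 and 2 lower. At an unadjusted p under 0.05 in edgeR there were 5, 7 and 9, beside 2739 of 16710, 3098 of 17211 and 2696 of 17124 rows. DESeq2 called 4, 4 and 5, beside 976, 1355 and 878 rows. Trpc6, which it shares with the channel list, was called in every preparation as higher. Lamc3, a laminin chain, rose in RiboZero, with a log2 change of 0.76 (SE 0.14, edgeR adjusted p 0.0103), and stood at 0.34 (SE 0.15) and 0.43 (SE 0.18) in PolyA and NoSelect. The Lamc3 call held in 19 of 20 alternatives and was lost with mice 3 to 6 alone, at 0.58 (adjusted p 0.158). The summed level of the 10 pericyte markers ran from 297.5 to 343.7 normalised CPM in RiboZero WT and from 316.2 to 437.3 in KO, and none of the 10 was at 0 in every library of a group. It ran from 213 to 258.1 against 249.4 to 320.7 in PolyA, and from 304.4 to 335.1 against 356.5 to 417.5 in NoSelect, where the groups did not overlap. The summed level of airway epithelial markers ran from 8685 to 11900 normalised CPM in NoSelect WT and from 12180 to 14850 in KO, without overlap, and overlapped in RiboZero (7724 to 13000 against 10630 to 13940) and in PolyA (22920 to 42780 against 27280 to 41120). Of the 6 genes of this list, 5 were tested and 0 passed in edgeR, with 3, 2 and 3 at an unadjusted p under 0.05 and 0, 0 and 1 called by DESeq2. The 5 mesothelial markers overlapped between the genotypes in each preparation (58.5 to 117.2 against 36.02 to 58.63 in NoSelect), and 0 passed in edgeR, with 2, 1 and 2 at an unadjusted p under 0.05 and 0, 0 and 1 called by DESeq2. The part of these shifts in the channel results was not tested.

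**Figure D3:**
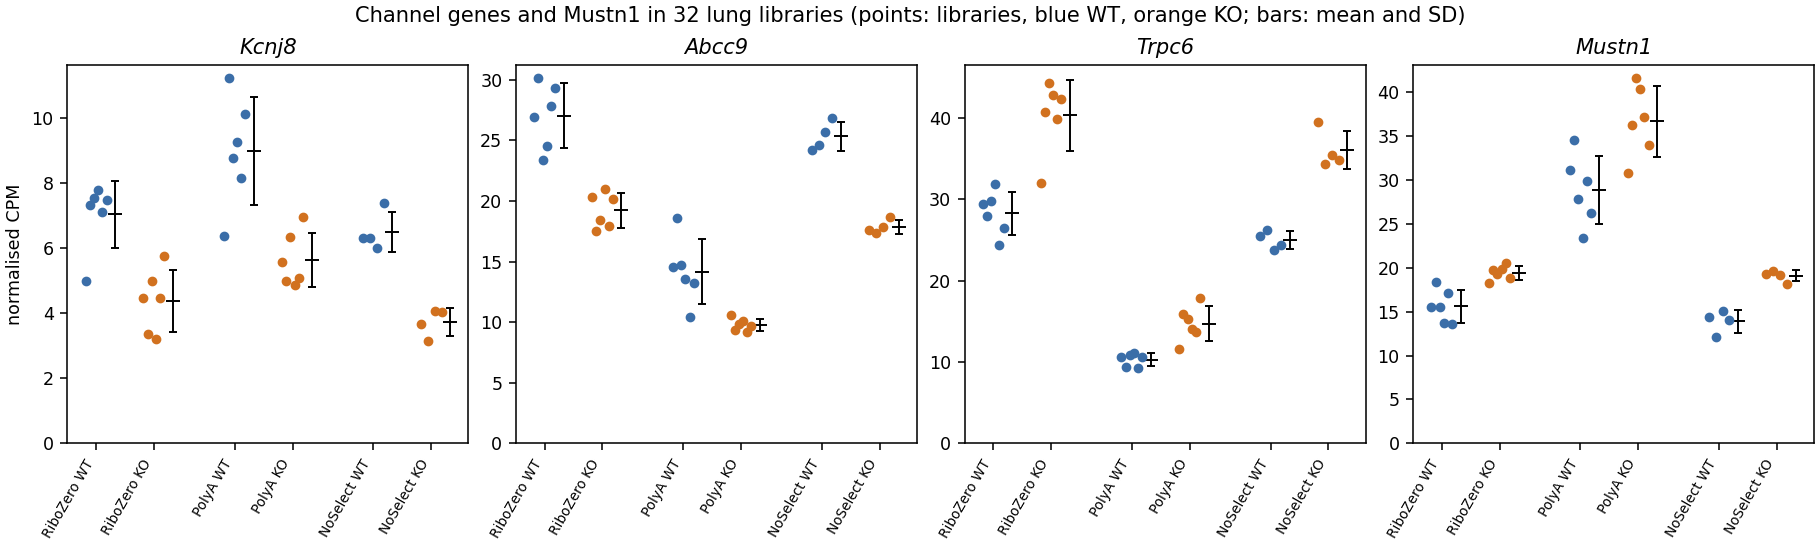
Normalised CPM (y axes, from 0) of the channel genes Kcnj8, Abcc9 and Trpc6 and of Mustn1 in each library, by preparation and genotype (x axes). Points are libraries and bars are mean and SD. WT and KO points of Trpc6 do not overlap in any preparation, and those of Abcc9 do not overlap in RiboZero or NoSelect.

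Of 10 fibroblast and myofibroblast markers, 0 passed in RiboZero in edgeR's test, where 4 had an unadjusted p under 0.05 and DESeq2 called 4. In PolyA and NoSelect, 3 and 5 had an unadjusted p under 0.05 and DESeq2 called 3 and 4. The proteoglycan Dcn and its relative Aspn fell in PolyA, with log2 changes of -0.78 (SE 0.12, edgeR adjusted p 0.00393) and -0.51 (SE 0.12, adjusted p 0.0315). In RiboZero and NoSelect, Dcn stood at -0.51 and -0.53 and Aspn at -0.44 and -0.39, short of the threshold in edgeR. In NoSelect the proteoglycan Lum fell, with a log2 change of -1.14 (SE 0.17, edgeR adjusted p 0.0142), and the collagen chain Col1a1 rose, at 0.54 (SE 0.098, adjusted p 0.0299). In RiboZero and PolyA, Lum stood at -0.80 and -0.91 and Col1a1 at 0.51 and 0.14, short of the threshold in edgeR. Dcn, Aspn and Col1a1 are named after their values were seen. The summed level of this list overlapped between WT and KO in all 3 preparations. Of 12 cardiomyocyte markers, known in mouse lung from the muscle sleeve of the pulmonary veins, 10, 11 and 10 were tested and 0 passed in edgeR, with 0, 2 and 1 at an unadjusted p under 0.05 and 0, 0 and 1 called by DESeq2. Skeletal muscle markers summed to at most 15.3 normalised CPM and cartilage markers to at most 1.23, and the defining markers Myod1 (in RiboZero and NoSelect) and Cnmd (in the same preparations) were at 0 in every library.

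The second comparison asked how the handling of ribosomal RNA bears on the measured levels of the same genes. RiboZero and PolyA libraries came from the same 12 mice. NoSelect held only mice 3 to 6, so its tests set 8 libraries against 12, with WT mouse 2 among the 12. The short genes of the group were counted higher after poly(A) selection and the long ones lower. In PolyA against RiboZero, with genotype in the model, 6 of 10 members had an adjusted p under 0.05 and were higher (background 42.5% of 18164 rows) and 4 of 10 were lower (38.6%), so a call by itself sets the members little apart from other rows. When the log2 fold change also had to reach 1 in size, 2 of 10 passed (23.6%), namely Actg2 and Myocd. The median log2 fold change of the 10 was 0.44, beside 0.07 over all rows.

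Actg2 was higher by 1.05 in log2 units (SE 0.14, edgeR adjusted p 2.94e-07), from a median of 13.6 normalised CPM over the 12 RiboZero libraries (range 9.11 to 21.3) to 27.5 in PolyA (19.6 to 56.5). Cnn1 was higher by 0.97 (SE 0.16), Tagln by 0.93 (SE 0.082), Acta2 by 0.67 (SE 0.11), Des by 0.62 (SE 0.0795) and Lmod1 by 0.25 (SE 0.059). Tagln did not overlap between the preparations, with 72.5 to 121 normalised CPM in RiboZero and 139 to 269 in PolyA. Myocd fell by 1.53 in the same units (SE 0.16, edgeR adjusted p 5.68e-09), from 2.98 to 5.30 normalised CPM in RiboZero to 0.802 to 2.41 in PolyA, without overlap. Mylk had a log2 change of -0.79 (SE 0.044), which took it from 340 to 453 down to 209 to 260, also without overlap. Synpo2 stood at -0.58 (SE 0.0699) and Myh11 at -0.32 (SE 0.0998, edgeR adjusted p 0.00567).

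In PolyA against NoSelect the same 6 genes had positive estimates. Here 6 of 10 members were higher (background 42.8% of 18372 rows), 3 of 10 were lower (36.3%), and 4 of 10 passed with the fold requirement (25.1%). These 4 were Cnn1 at 1.26 (SE 0.17), Tagln at 1.21 (SE 0.088), Actg2 at 1.05 (SE 0.16) and Myocd at -2.27 (SE 0.18). Myocd had 5.32 to 8.27 normalised CPM in the 8 NoSelect libraries, so that every PolyA library lay below every NoSelect library. The fold requirement was missed by Actg2 in 8 of 19 alternatives, among them the one without WT mouse 2, at 0.94. Synpo2 stood at -0.86 (SE 0.072) and Mylk at -0.81 (SE 0.043). Myh11 did not pass at -0.07 (SE 0.11, edgeR adjusted p 0.572), but with the mouse as a block it was -0.17 with an adjusted p of 0.000207, and 4 of 10 members were then lower. Without WT mouse 2 it was -0.16 with an adjusted p of 0.0391. The call of Lmod1, at 0.20 (SE 0.063, edgeR adjusted p 0.00671), held in 14 of 19 alternatives. This comparison shares its PolyA libraries with the one before.

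RiboZero and NoSelect, neither of which selects on the poly(A) tail, lay closer together. Of the 10, 3 were higher in RiboZero (Tagln at 0.24, SE 0.068; Acta2 at 0.23, SE 0.094; Myh11 at 0.21, SE 0.079; background 24.3% of 17502 rows) and 2 were lower (Myocd at -0.78, SE 0.12; Synpo2 at -0.32, SE 0.068; background 21.5%). With the fold requirement 0 of 10 passed (4.3% of rows), also in DESeq2. An unadjusted p under 0.05 in edgeR was found for 5 of 10 members and for 8969 of 17502 rows. The calls of Acta2 and Myh11 held in 6 and 11 of 19 alternatives. With the mouse as a block, Cnn1 at 0.22 and Mylk at -0.08 passed as well (edgeR adjusted p 1.19e-05 and 6.18e-05), which gave 4 higher and 3 lower. The background shares given are those of the fit without the block, so these counts cannot be set against them. Over both comparisons Myocd was highest in NoSelect, with a mean of 6.61 ± 1.13 normalised CPM (SD, n = 8), intermediate in RiboZero at 3.87 ± 0.780 (n = 12) and lowest in PolyA at 1.38 ± 0.499 (n = 12).

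The 6 members that were higher in PolyA than in RiboZero span 6.44 to 43.3 kb of the genome (Tagln, Des, Cnn1, Acta2, Actg2 and Lmod1), and the 4 that were lower span 93.4 to 257 kb (Myocd, Myh11, Synpo2 and Mylk). Genes are not independent replicates. Across these 10, Pearson's r between the log2 change and log2 span was -0.847 in the comparison of PolyA and RiboZero, -0.807 in that of PolyA and NoSelect and -0.559 in that of RiboZero and NoSelect. Other genes showed the same sign in the comparisons with PolyA. Over 15054 protein-coding rows the same r was -0.346 for PolyA against RiboZero, and rows spanning under 50 kb had a median of 0.29 where those of 50 kb or more had -0.55. For PolyA against NoSelect this r was -0.366 over 15257 rows. For RiboZero against NoSelect it was near 0, at -0.053 over 14685 rows. Exon length went with the change as well (r of -0.841 over the 10 genes), so span and transcript length cannot be told apart among them.

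**Figure D4:**
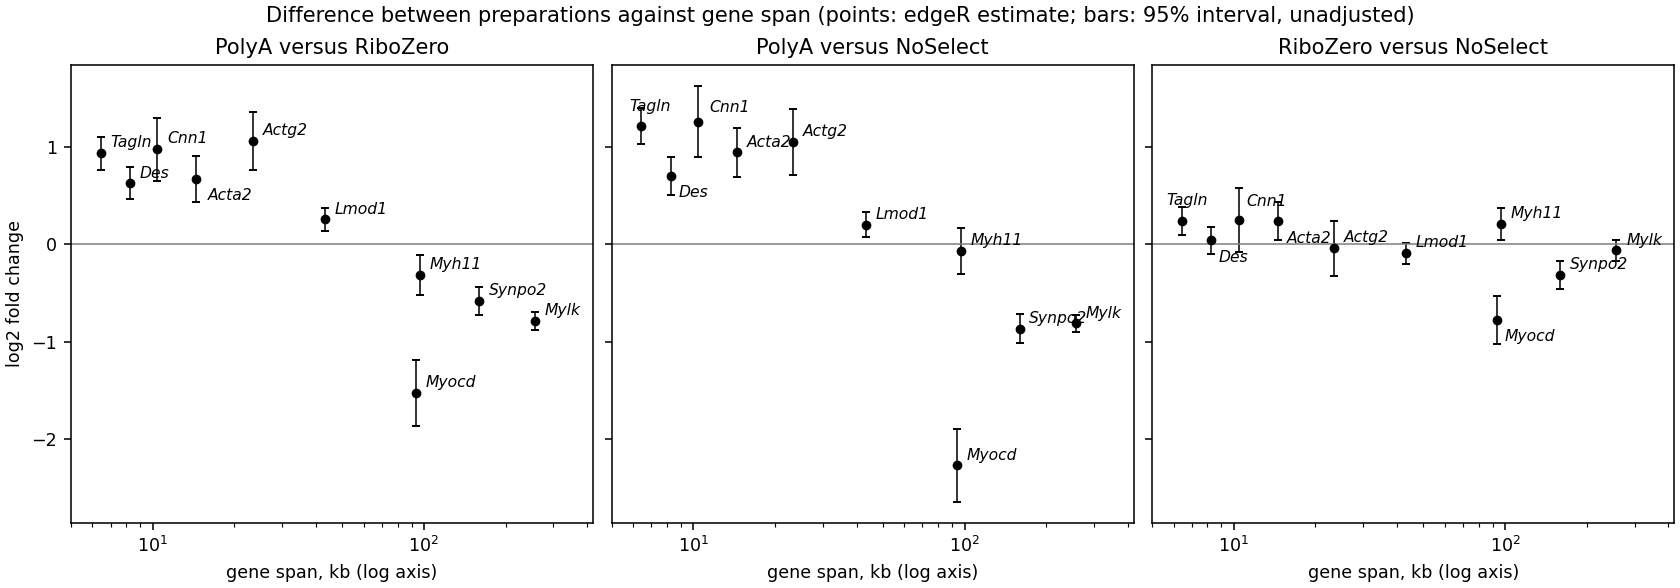
Log2 fold change between preparations (y axis) against the genomic span of the gene in kb (log x axis) for the 10 genes. Points are edgeR estimates and bars unadjusted 95% intervals. In both panels with PolyA the genes of up to 43.3 kb lie above 0 and those of 93.4 kb or more below 0, and in the panel of RiboZero against NoSelect all but Myocd lie between -0.32 and 0.25.

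Last, it was described how the members vary together between mice once the genotype means are removed. For each preparation, log2 normalised CPM of the 12 mice was correlated for the 45 pairs of genes, with permutation p-values over 100000 permutations within genotype, adjusted over the 45 pairs. Relations were tested in this way in both preparations with 12 mice. In RiboZero 11 of 45 pairs passed by Pearson's r and 6 by Spearman's rho, with a median r of 0.55. In PolyA 21 of 45 passed by r and 4 by rho, with a median r of 0.66. The relation rested in large part on WT mouse 2. Here and below, the 2 libraries farthest from the median are chosen for each pair, by its first-listed gene, and can differ between pairs. Without them the median r was 0.19 in RiboZero and 0.37 in PolyA. Without WT mouse 2 the pairs that passed numbered 0 in RiboZero and 3 in PolyA. Without KO mouse 6 they numbered 8 and 18.

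In PolyA the closest pairs were among Cnn1, Des and Actg2, where r was 0.986 for Cnn1 with Des (permutation p 2e-05, adjusted p 0.00045; rho 0.874, permutation p 0.00057, adjusted p 0.0117), and 0.961 without the 2 libraries farthest from the median. Des with Actg2 had r of 0.982 (permutation p 1e-05, the smallest these permutations can give, adjusted p 0.00045; rho 0.937, permutation p 0.00013, adjusted p 0.00585) and 0.959 without them. In RiboZero the highest of the 45 was that of Acta2 with Myh11, and Cnn1 with Des had r of 0.919 (permutation p 0.00031, adjusted p 0.00615; rho 0.895, permutation p 0.0006, adjusted p 0.0135) and 0.814 without them. Acta2 and Myh11, the actin and the myosin of the contractile unit, had r of 0.936 in RiboZero (permutation p 0.00213, adjusted p 0.016; rho 0.867, permutation p 0.00943, adjusted p 0.0606) and 0.807 without the 2.

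Mylk stood apart. Its median r with the other 9 genes was -0.08 in RiboZero and 0.11 in PolyA, where the same median was 0.74 and 0.79 for Cnn1. One of its 9 pairs passed in RiboZero, with Synpo2 at r of 0.695 (permutation p 0.0104, adjusted p 0.0461; rho 0.713, permutation p 0.0153, adjusted p 0.069), and 0 did in PolyA. WT mouse 2, the highest for most members, had 453 normalised CPM of Mylk in RiboZero, level with WT mouse 1, and 242 in PolyA, within the range of the other mice. Whether these medians differ between genes was not tested.

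**Figure D5:**
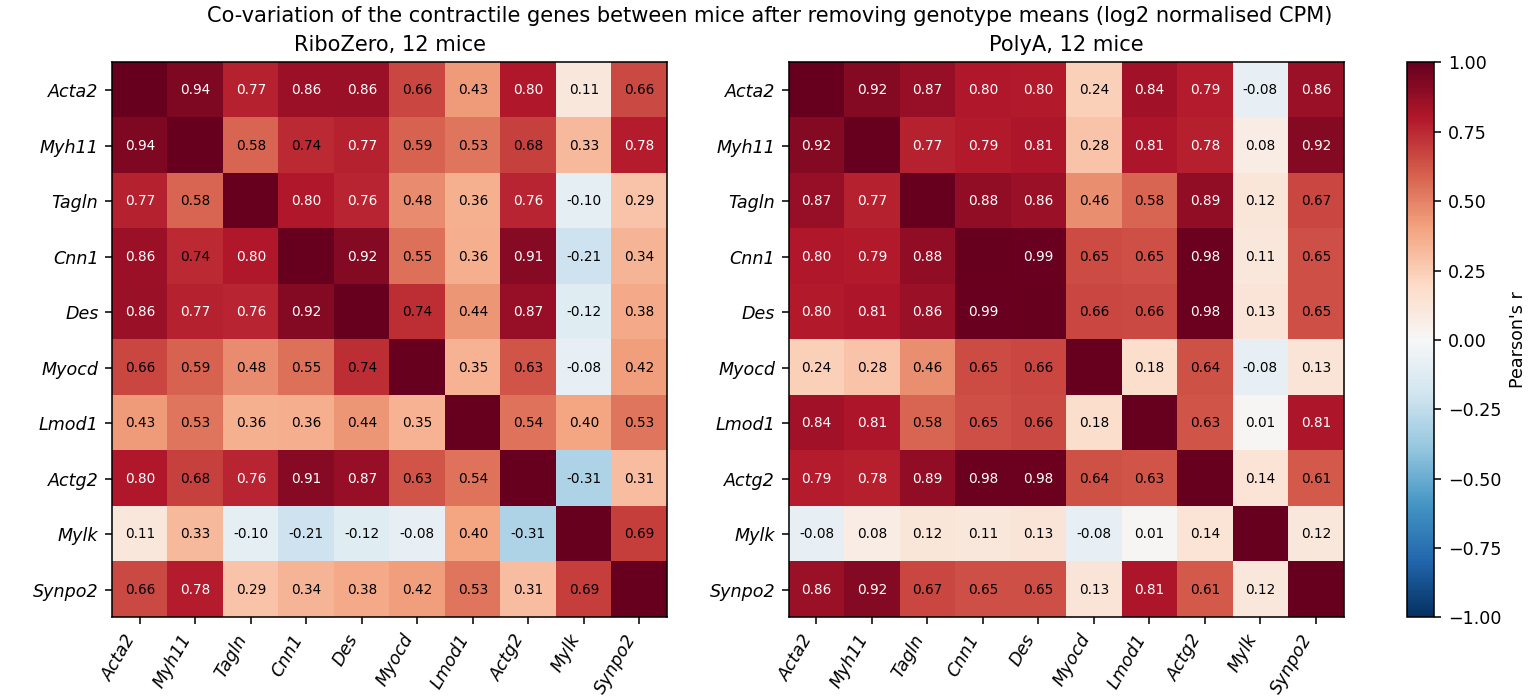
Pearson's r between the 10 genes (rows and columns) over 12 mice in RiboZero and in PolyA, from log2 normalised CPM with genotype means removed. Colour and number give r. The block of Cnn1, Des and Actg2 is at 0.87 or above in both panels, and the Mylk row is near 0 in PolyA.

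Cardiomyocyte markers were set beside the members by mouse, and a relation was not tested. Their summed level was highest in WT mouse 2, at 887.3 normalised CPM in RiboZero and 754.7 in PolyA. The other 11 mice ran from 83.8 to 641.4 and from 85.95 to 527.4. Next highest in both was KO mouse 1, whose median rank over the members was 6 of 12 in each. The summed level was lowest in KO mouse 3, at 83.8 in RiboZero, 85.95 in PolyA and 83.95 in NoSelect. There 4, 2 and 4 of the 12 markers were at 0. Of these, the defining marker Myh6 was at 0 in RiboZero and in NoSelect. In RiboZero that mouse was neither lowest nor highest for any member, with 121.9 normalised CPM of Acta2, 176.5 of Myh11 and 68.02 of Des. In PolyA it was lowest for Myocd, and in NoSelect it was the lowest of 8 for Tagln, Des and Actg2. Without KO mouse 3 the pairs that passed were 13 in RiboZero and 21 in PolyA. Other lists were high in WT mouse 2 too. Its airway epithelial markers summed to 42780 normalised CPM in PolyA, the highest of 12, and to 13000 in RiboZero, the highest of the 6 WT mice. Its skeletal muscle markers summed to 15.31 in PolyA, also the highest of 12, and to 6.756 in RiboZero, below KO mouse 4 at 8.515. The part of these cell types in the level of WT mouse 2 was not tested.

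By a rule that took the average standardised deviation of the 10 genes and ranked 13214 other rows by the lower of their correlations with it in RiboZero and PolyA (12 mice each), the most similar genes were Myl9 (0.87), Por (0.85), Ntmt1 (0.82), Actc1 (0.82), Ppp1r12b (0.81) and Tpm2 (0.80). Myl9 is the regulatory light chain of smooth muscle myosin, Ppp1r12b a myosin phosphatase subunit, Tpm2 a tropomyosin and Actc1 the cardiac actin. Without WT mouse 2 these values were 0.63 for Myl9, 0.53 for Por, 0.12 for Ntmt1, 0.63 for Actc1, 0.56 for Ppp1r12b and 0.58 for Tpm2.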

How the data were processed

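Lung RNA of 12 mice in 32 libraries was analysed. The authors deposited a table of estimated counts per gene. Salmon 1.4.0, UMI-tools 1.1.1 and the build GRCm38 are named in the submitters' processing notes; the index, the annotation and the use of strand are not given in the sources used here. Of the deposited values 12.8% were not whole, and estimated counts were rounded before testing. Of 41687 rows, 37751 carried a gene identifier and 37649 a symbol, and 11621 were at 0 throughout. Libraries were grouped by the labels, and 0 columns were left unused.

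Tests were run in R 4.3.3 with edgeR 4.0.16 (TMM, filterByExpr, glmQLFit, glmQLFTest, Benjamini-Hochberg over all rows tested). Genotypes were compared inside each preparation, preparations over both genotypes with a term for genotype, and their interaction in a further fit. The main fits of preparations and interactions had no term for the mouse, which was a block in an alternative. Calls required an adjusted p under 0.05, and the fold requirement a log2 fold change of 1 or more in size. Unadjusted 95% intervals use the fit's standard error. Non-overlap was judged on normalised CPM. Correlations were computed in Python 3.11.15 (numpy 2.4.6, pandas 2.3.3 and scipy 1.17.1). Spans, exons and coordinates came from GENCODE M21 and promoters from RefSeq GRCm38.p6. The fits were tested on simulated data.

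The members, gene lists and alternatives were chosen with earlier results of these data known. All members are named. From each related list, genes called in at least 2 comparisons of genotype, and the one with the largest change in RiboZero and in PolyA, could be named. The counts over one related list are not reported here. A number shared by a WT and a KO mouse does not make them a pair, and the deviations of such mice correlated between -0.14 and 0.24. Libraries of one mouse are paired by animal, with correlations between 0.31 and 0.74 across preparations. Alternatives included median-of-ratios scaling, DESeq2 1.42.0, other filters on low counts, removal of Lars2, the Gm42418 row and mitochondrial rows, replicate blocks, all 32 libraries in one fit, mice 3 to 6 alone, and leaving out libraries. Leaving out WT mouse 2 or KO mouse 3 from the co-variation was chosen after seeing the data.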

Additional observations from a re-analysis of the deposited data

Results flagged for a closer look

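Of 60 groups of libraries, one for each of the 10 genes in each preparation and genotype, 7 held a library far from the rest by Dixon's test, where chance gives about 1 in 20. WT mouse 2 was that library in 6 of them: Acta2 at 199.6 normalised CPM in RiboZero WT, Acta2 at 382.4, Myh11 at 226.6, Tagln at 268.9 and Synpo2 at 26.69 in PolyA WT, and Synpo2 at 35.98 in RiboZero WT. KO mouse 6 was the other, with Myocd at 2.412 in PolyA KO.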

How the results depend on the processing

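No member passed the test between KO and WT, and none did for an interaction, under any alternative. The rows called between KO and WT numbered 579 in RiboZero, 694 in PolyA and 372 in NoSelect. DESeq2 gave 976, 1355 and 878. A replicate block on the animal numbers, which do not pair WT and KO, gave 372 in RiboZero and 103 in NoSelect. All 32 libraries in one fit gave 891 in RiboZero and 1564 in PolyA, and mice 3 to 6 alone gave 255 in RiboZero. Leaving out 1 library gave 380 to 644, 442 to 1066 and 148 to 472. Without a filter on low counts 6552 rows met the fold requirement in PolyA against RiboZero (4292 in the main test) and 7039 in PolyA against NoSelect (4619). With at least 10 counts in every library there were 2560, 2902 and, in RiboZero against NoSelect, 301 (752). Interactions called 0 rows, but 11, 13 and 9 in DESeq2, 1 in PolyA against RiboZero and 1 in RiboZero against NoSelect with a replicate block, 1 in the latter with mice 3 to 6 alone, and 0 to 2 in PolyA against NoSelect without 1 library. The pairs that passed in co-variation went to 0 and 3 without WT mouse 2. Some estimates near 0 changed sign, none past the threshold. In RiboZero, Myocd was -0.0213 without KO mouse 6 (-0.0757 to 0.1204 over the fits that left out 1 library) and Acta2 0.0736 with mice 3 to 6 (-0.0842 to 0.1188). In PolyA, Myh11 was 0.0051 without a filter, 0.0348 with a replicate block, 0.0265 with all libraries and 0.2042 with mice 3 to 6 (-0.0702 to 0.1917). Synpo2 was 0.0035 without KO mouse 6, 0.0139 with all libraries and 0.1014 with mice 3 to 6 (-0.0533 to 0.1001), and Acta2 0.0105 with mice 3 to 6 (-0.2619 to 0.0245). In NoSelect without KO mouse 6, Mylk was 0.0387 (-0.0729 to 0.0387) and Kcnmb1 -0.0867 (-0.0867 to 0.1882). Leaving out 1 library moved Des between -0.1069 and 0.023, Myocd between -0.1413 and 0.0973 and Synpo2 between -0.0145 and 0.1092 in NoSelect, and Actg2 between -0.1082 and 0.0076 in RiboZero against NoSelect. The cause of these shifts was not tested. With a replicate block the calls of Kcnj8 in RiboZero and NoSelect, Mustn1, Lum, Sftpa1 and Sftpd in NoSelect, and Pdlim3, Prkg1 and Arntl in PolyA were lost. Depth limits Myocd most, with 44 counts in its lowest library.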
